A study of Mus musculus with 6 samples.

Results

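The enzymes that build and break down glycogen were followed in articular cartilage of aged KO and wildtype mice, gene by gene and library by library. The set held 9 of the 34709 genes in the expression table: Pgm2, Ugp2, Gys1, Gbe1, Pygl, Pygb, Pygm, Phka2 and Phkb. The genes were chosen by their names, with the KO versus wildtype difference of these same libraries already known, so their differences are given as a description and without a test. Whole transcriptome RNA sequencing had been done on 3 libraries labelled KO and 3 labelled wildtype, from male littermates aged 18 months, with no treatment named for either group in the sources used here. Neither the mouse strain nor the joint the cartilage was cut from is given for these libraries in the sources used here, and no restriction of the KO to a cell type is described. Levels are FPKM, which is fragment counts scaled to transcript length and library depth, so they can be compared between genes.

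Glycogen is the branched glucose polymer in which cells keep glucose at hand. Phosphoglucomutase and UDP-glucose pyrophosphorylase turn glucose 6-phosphate into UDP-glucose, glycogen synthase strings the glucose into chains on a glycogenin primer, and the branching enzyme adds the branches. Glycogen phosphorylase, switched on by phosphorylase kinase, cuts glucose off the chains again. Chondrocytes live in a tissue without blood vessels and hold glycogen, and so do neutrophils and muscle fibres.

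The libraries labelled KO replicates 2 and 3 were far closer to each other than any other pair of libraries. Across genes of intermediate counts their difference was 5.62 times the variance that counting alone gives, against 23.8 to 83.7 times in the other 14 pairs, and their log2 FPKM correlated at 0.994 across genes, against 0.959 to 0.980. Their difference exceeded counting noise, but they were averaged into 1 sample, which left 5 samples, of which 2 were KO. On the first principal component, which carried 45.9% of the variance, KO replicates 2 and 3 lay at 50.7 and 49.6, whereas the library labelled KO replicate 1 lay at -24.6, among the wildtype libraries at -26.2 to -23.9. The differences of the 9 genes are therefore also given with KO replicate 1 alone and with KO replicates 2 and 3 alone. Total counts ran from 52268311 to 63331135 per library. The 9 genes had between 344 and 42219 counts in every library, and all 9 passed the minimum of a mean of 0.5 FPKM, which 15373 genes passed.

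The defining markers of cartilage and of other cells were read as well. Of 13 chondrocyte markers 10 passed that minimum and 3, Matn1, Matn3 and Col9a1, did not, and Col2a1, the main cartilage collagen, stood at 12.4 to 21.3 FPKM. S100a9, an abundant neutrophil transcript, stood far above it at 11637 to 27817 FPKM. In such bulk samples, fewer cells of a type and less RNA per cell cannot be told apart.

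All 9 genes were detected in every library, at very different levels. Averaged over the 6 libraries, Pygl, the liver-type phosphorylase, was the highest at 59.0 FPKM, above 95.4% of the genes tested. Ugp2 followed at 30.6 FPKM and Pgm2 at 13.5 FPKM. These 3 kept that order in every library, and the ranges of Pygl and Ugp2, and those of Ugp2 and Pgm2, did not overlap. Gys1 at 10.8 FPKM was below Pgm2 in 6 of 6 libraries, although their ranges over the 6 libraries overlapped. Gys1 was above Phka2, the next in order, in 5 of 6 libraries. Phka2 at 7.78, Gbe1 at 7.76 and Pygb at 7.74 FPKM could not be ordered, since Phka2 was above Gbe1 in 2 of 6 libraries and Gbe1 above Pygb in 3 of 6. Phkb at 5.74 FPKM was below Pygb in 6 of 6 libraries. Pygm at 3.87 FPKM was the lowest of the 9 in every library but wildtype replicate 3, where it ranked 4 of 9.

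**Figure D1:**
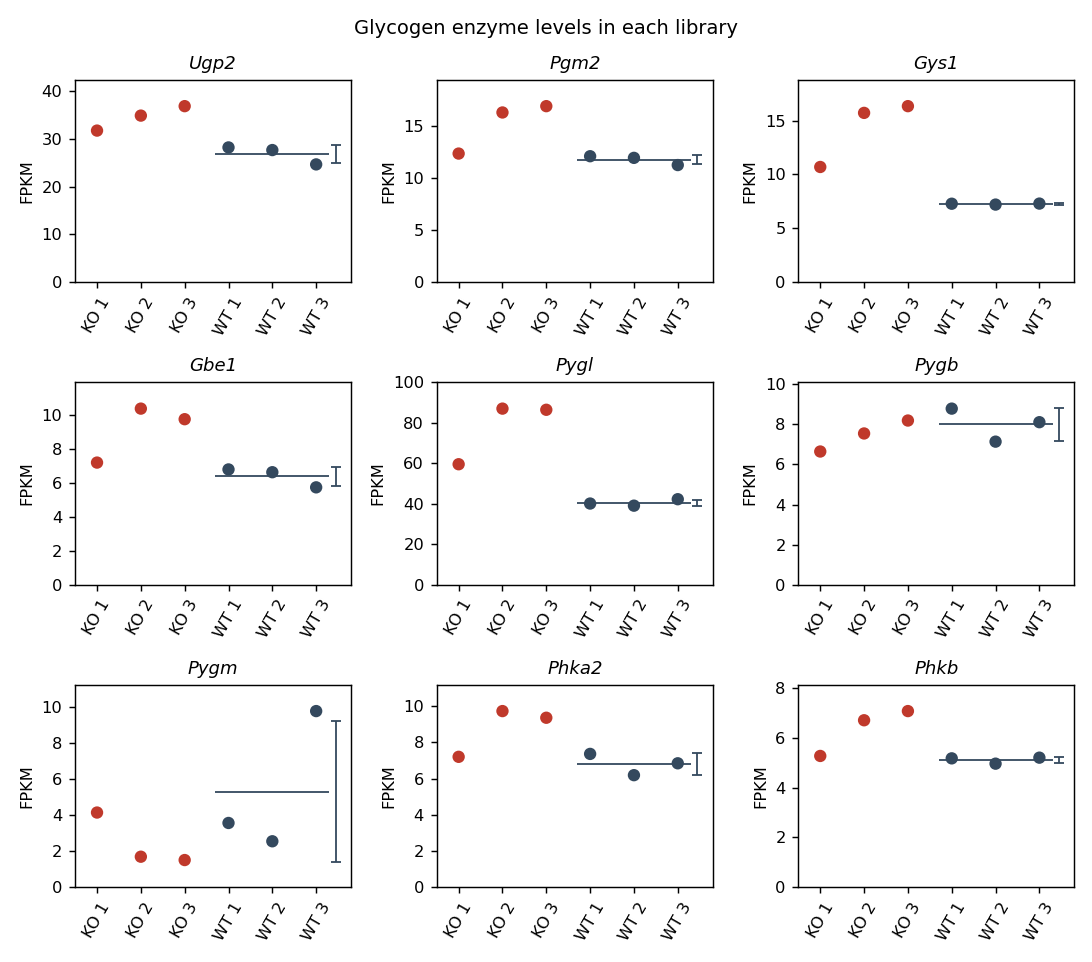
FPKM of each of the 9 genes (vertical axes, each from 0) in the 3 libraries labelled KO (red) and the 3 wildtype libraries (dark), with the wildtype mean as a line and its SD as the bar at the right. Gys1, at 10.7 to 16.3 FPKM in KO and 7.21 to 7.30 FPKM in wildtype, and Pygl stand clear of all wildtype libraries in every KO library, and Pygm is spread widely among the wildtype libraries.

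In 6 of the 9 genes, Gys1, Pygl, Gbe1, Ugp2, Pgm2 and Phkb, every KO library had a higher FPKM than every wildtype library, and in the other 3, Phka2, Pygb and Pygm, the groups overlapped. Among all 15373 tested genes 11.3% had every KO library above every wildtype library and 13.7% had every KO library below. Since the 9 genes were chosen with this contrast known, their count is set beside the background and nothing is read from it. The median log2 difference of the 9 genes, KO minus wildtype, was 0.31, beside -0.016 over all tested genes. Of the 9 differences 7 were positive, beside 7308 of all 15373.

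Ugp2 and Pgm2, placed here on the way to UDP-glucose, differed modestly between the groups. Ugp2, the pyrophosphorylase that joins glucose 1-phosphate to UTP (ENSMUSG00000001891, chr11:21321138-21371201, reverse strand, GRCm38), had 31.7, 34.8 and 36.8 FPKM in KO replicates 1 to 3 and 28.2, 27.6 and 24.6 FPKM in wildtype replicates 1 to 3. All 3 KO libraries were above the highest wildtype library, KO replicate 1 included. Its log2 difference in the 5 samples was 0.35 (SE 0.123, with 2 KO and 3 wildtype samples), and it hardly depended on the KO library used, at 0.32 with KO replicate 1 alone and 0.38 with the merged KO replicates 2 and 3 alone.

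Pgm2 (ENSMUSG00000029171, chr5:64092950-64128351, forward strand) is a mutase of ribose phosphates that also interconverts glucose 1-phosphate and glucose 6-phosphate. It had 12.3, 16.3 and 16.9 FPKM in KO and 12.1, 11.9 and 11.2 FPKM in wildtype. KO replicate 1 lay just above the highest wildtype library, so the groups were separated by a narrow gap. This gave a log2 difference of 0.31 (SE 0.147), with 0.15 for KO replicate 1 alone and 0.46 for KO replicates 2 and 3.

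Gys1, the glycogen synthase of most tissues outside the liver (ENSMUSG00000003865, chr7:45434844-45456619, forward strand), and Pygl had the largest log2 differences of the 9 genes and cannot be ordered within their errors. Gys1 had 10.7, 15.7 and 16.3 FPKM in KO against 7.29, 7.21 and 7.30 FPKM in wildtype. The wildtype libraries were nearly identical, with a mean of 7.26 FPKM (SD 0.05, n = 3), and KO replicate 1 stood at 1.47 times that mean and KO replicates 2 and 3 at 2.16 and 2.25 times. Its log2 difference was 0.89 (SE 0.161), above 98.0% of all tested genes, and it was 0.64 with KO replicate 1 alone and 1.10 with KO replicates 2 and 3. Gys1 shares 310 of its 4789 exon bases with Ruvbl2 on the other strand, which had 12.5 to 17.9 FPKM, and whether strand was used in counting is not given in the sources used here.

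The 250 bases before the RefSeq start of Gys1 (chr7:45434589-45434838, forward strand, GRCm38.p6) are shown because this gene and Pygl had the largest differences. ACGTG, a form of the core of the sites that hypoxia-inducible factors bind, and its reverse complement CACGT were searched in such windows. This was done because cartilage is normally short of oxygen, and other forms of the core, such as GCGTG, were not searched. This window holds neither of the strings searched.
Gys1: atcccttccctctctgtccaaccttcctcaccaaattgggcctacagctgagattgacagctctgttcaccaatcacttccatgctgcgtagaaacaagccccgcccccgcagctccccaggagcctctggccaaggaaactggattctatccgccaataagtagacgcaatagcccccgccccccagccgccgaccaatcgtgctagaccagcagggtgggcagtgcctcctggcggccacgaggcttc
That these letters are not in this window says nothing of the factor.

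Gbe1, the branching enzyme (ENSMUSG00000022707, chr16:70313949-70569716, forward strand), had 7.20, 10.4 and 9.76 FPKM in KO and 6.80, 6.64 and 5.74 FPKM in wildtype. Every KO library was again above every wildtype library, by a small margin for KO replicate 1. Gbe1 had a log2 difference of 0.44 (SE 0.162), with 0.25 for KO replicate 1 alone and 0.62 for KO replicates 2 and 3. Set against the synthase whose chains it branches, Gbe1 stood at 59.8 to 67.4 FPKM per 100 FPKM of Gys1 in the KO libraries. In the wildtype libraries it stood at 78.7 to 93.3, and the ranges did not overlap. Both genes had higher FPKM in every KO library, so this ratio restates the larger difference of Gys1.

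The 3 phosphorylases, which carry out the same step and are known from different tissues, had different values in KO. Pygl, the liver isoform (ENSMUSG00000021069, chr12:70190811-70231488, reverse strand), had 59.5, 87.0 and 86.4 FPKM in KO and 40.1, 39.0 and 42.2 FPKM in wildtype. All KO libraries were well above wildtype, at 1.47, 2.15 and 2.14 times the wildtype mean. The log2 difference was 0.86 (SE 0.173), above 97.8% of tested genes, with 0.64 for KO replicate 1 alone and 1.06 for KO replicates 2 and 3. Pygb, the brain isoform (ENSMUSG00000033059, chr2:150786735-150831758, forward strand), had 6.65, 7.55 and 8.19 FPKM in KO and 8.79, 7.14 and 8.11 FPKM in wildtype. The groups overlapped, and the log2 difference of -0.12 (SE 0.133) was smaller than its error. Pygm, the muscle isoform (ENSMUSG00000032648, chr19:6384399-6398459, forward strand), had 4.15, 1.69 and 1.51 FPKM in KO and 3.57, 2.55 and 9.78 FPKM in wildtype. Wildtype replicate 3 was far above the other libraries and KO replicate 1 was above wildtype replicates 1 and 2. The log2 difference of -0.83 (SE 0.640) became -0.03 without wildtype replicate 3, -0.27 with KO replicate 1 alone and -1.75 with KO replicates 2 and 3.

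The 250 bases before the RefSeq start of the 3 phosphorylases are shown to set the isoforms beside each other, with the match to ACGTG or CACGT in capitals. They lie at chr12:70227684-70227933 on the reverse strand for Pygl, at chr2:150786546-150786795 on the forward strand for Pygb and at chr19:6384158-6384407 on the forward strand for Pygm. The RefSeq start of Pygl lies 3805 bases inside the gene span of the expression table.
Pygl: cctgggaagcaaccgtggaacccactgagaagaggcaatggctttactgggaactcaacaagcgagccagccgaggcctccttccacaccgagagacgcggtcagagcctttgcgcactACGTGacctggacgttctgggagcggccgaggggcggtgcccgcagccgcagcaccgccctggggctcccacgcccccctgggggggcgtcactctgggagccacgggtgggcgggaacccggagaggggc
Pygb: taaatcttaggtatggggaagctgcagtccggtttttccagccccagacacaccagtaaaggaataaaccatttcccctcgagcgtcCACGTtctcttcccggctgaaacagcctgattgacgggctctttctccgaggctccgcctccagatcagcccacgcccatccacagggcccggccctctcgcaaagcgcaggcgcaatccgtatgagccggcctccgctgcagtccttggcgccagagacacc
Pygm: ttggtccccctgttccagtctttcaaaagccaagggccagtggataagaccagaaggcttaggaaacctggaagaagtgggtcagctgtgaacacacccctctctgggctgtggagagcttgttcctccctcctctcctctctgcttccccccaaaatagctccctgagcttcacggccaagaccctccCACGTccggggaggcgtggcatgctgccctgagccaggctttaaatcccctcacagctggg
Each holds 1 match, which ends 126 bases before the start in Pygl, 158 in Pygb and 56 in Pygm, so the isoform with the higher level in KO and the other two alike hold these letters. All 9 genes were matched to 10 such windows, 1 for each gene and a second for Ugp2. In 5 of the windows there was a match, those of Pgm2 and Ugp2 besides the phosphorylases, beside 16.6% of 32851 mouse promoter windows. G and C made up 48.8% of the Gbe1 window and 58.4% to 73.6% of the others, against a median of 52.4% over all windows. The background was not matched for this, so no enrichment can be read from it. The palindrome CACGTG, which contains both strings, was in 0 of the 10 windows and in 6.02% of all windows. A match is a description of letters and not a bound site.

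**Figure D2:**
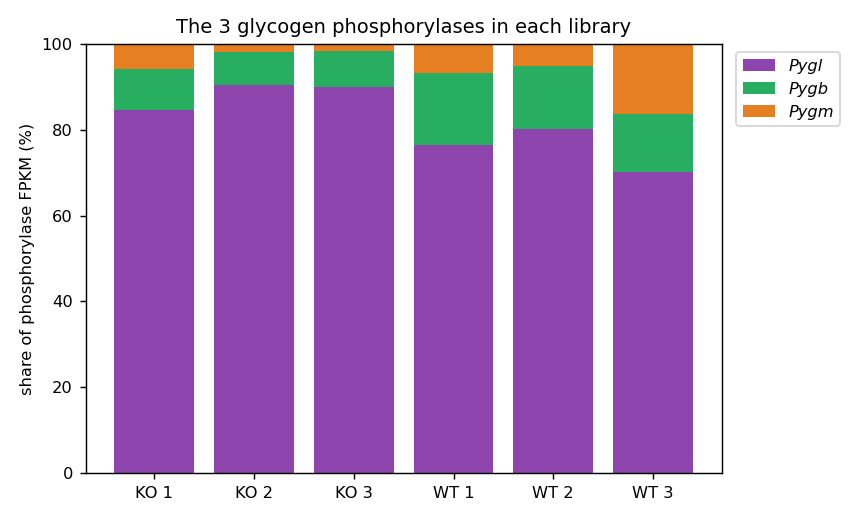
Share of Pygl, Pygb and Pygm in their summed FPKM (vertical axis, percent) in each library. Pygl takes 84.6% to 90.4% in the KO libraries and 70.2% to 80.1% in the wildtype libraries.

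The make-up of the phosphorylase transcripts was followed as the share of each isoform in their sum. Together the 3 isoforms had 70.3 to 96.2 FPKM in the KO libraries and 48.7 to 60.1 FPKM in the wildtype libraries. Pygl made up 84.6% to 90.4% of that sum in KO and 70.2% to 80.1% in wildtype. Pygb made up 7.85% to 9.46% in KO and 13.5% to 16.8% in wildtype, and neither pair of ranges overlapped. The FPKM of Pygb itself overlapped between the groups, so these shares restate the higher Pygl and are not a separate result. Pygm made up 1.57% to 5.90% in KO and 5.23% to 16.3% in wildtype, with overlap.

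Phosphorylase kinase is a complex of several kinds of subunit, of which the regulatory Phka2, the liver-type alpha subunit, and Phkb, the beta subunit, belong to the set. Phka2 (ENSMUSG00000031295, chrX:160502166-160591141, forward strand) had 7.20, 9.72 and 9.35 FPKM in KO and 7.36, 6.18 and 6.84 FPKM in wildtype. KO replicate 1 lay within the wildtype range, and KO replicates 2 and 3 lay above it. The log2 difference was 0.31 (SE 0.140), with 0.17 for KO replicate 1 alone and 0.45 for KO replicates 2 and 3. Phkb (ENSMUSG00000036879, chr8:85840959-86030391, forward strand) had 5.28, 6.71 and 7.08 FPKM in KO and 5.18, 4.97 and 5.21 FPKM in wildtype. KO replicate 1 barely exceeded the highest wildtype library, and the log2 difference of 0.26 (SE 0.135) was 0.12 with KO replicate 1 alone and 0.39 with KO replicates 2 and 3. The ratio of the subunits, 132 to 145 FPKM of Phka2 per 100 FPKM of Phkb in KO and 124 to 142 in wildtype, overlapped between the groups.

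**Figure D3:**
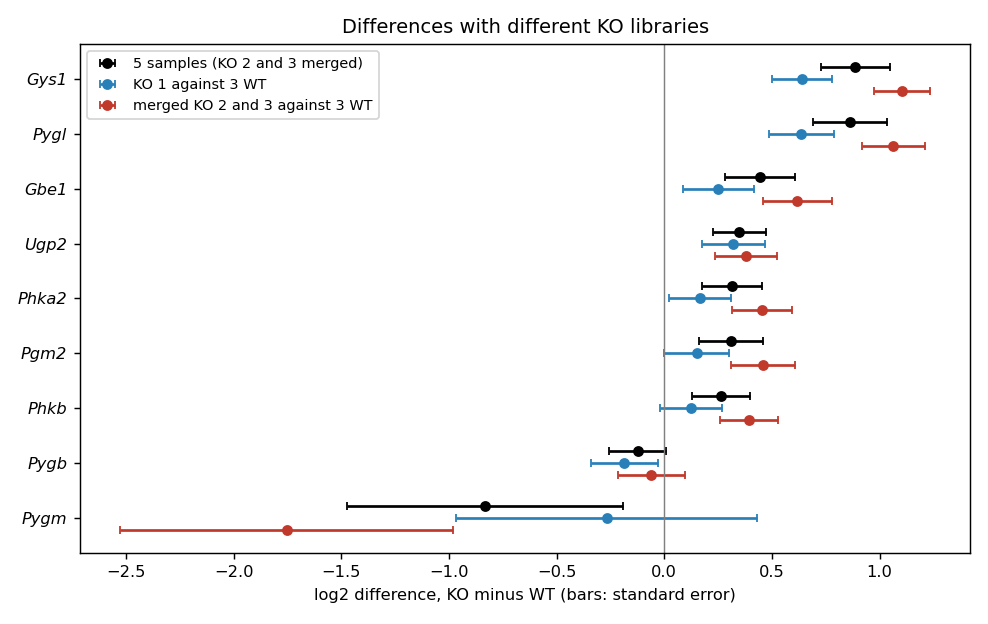
Log2 difference, KO minus wildtype, of each gene (horizontal axis, bars are standard errors) in the 5 samples (black), with KO replicate 1 as the lone KO sample (blue) and with the merged KO replicates 2 and 3 as the lone KO sample (red). The 7 genes right of 0 stay there with either KO sample, with Gys1 at 0.64 and 1.10, and Pygm moves from -0.27 to -1.75.

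The synthase and the liver phosphorylase kept nearly the same ratio in all 6 libraries. Gys1 stood at 17.97 to 18.91 FPKM per 100 FPKM of Pygl in KO and 17.3 to 18.5 in wildtype, so the groups overlapped. Over the 6 libraries these genes had the most alike profiles of any pair among the 9, with a root mean square difference of 0.0392 between their centred log2 levels. Pgm2 and Phkb were the next closest pair at 0.0553, and Gys1 and Pygm the farthest apart at 1.31. These are descriptions over 6 libraries of 2 groups, in which genes that differ between the groups by a like amount look alike.

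Among 7606 other genes that averaged 5 FPKM or more, those with the profile most like Gys1 were Pirb, an inhibitory receptor of myeloid cells, at a root mean square difference of 0.0353, and Cybb, a subunit of the phagocyte NADPH oxidase, at 0.0449. Pirb had 64.2, 99.3 and 100.4 FPKM in KO and 43.3, 44.2 and 46.4 FPKM in wildtype. Syne1 at 0.0318 and again Pirb at 0.0410 were nearest to Pygl. The nearest to Pygm were Eno3, the muscle enolase, at 0.281, and Isg15 at 0.287. Eno3 had 16.9, 4.79 and 5.78 FPKM in KO and 9.63, 10.6 and 26.2 FPKM in wildtype. This measure is not scaled to the spread of a profile. The Pygm profile spanned 2.71 log2 units, against 0.284 for Pygb to 1.17 for Gys1 among the other enzymes, so its distances cannot be set beside theirs. The nearest genes were Ankrd28 and Aldh3a2 for Gbe1, Ptgir and Emp3 for Ugp2, Trim11 and Tle3 for Pgm2, Wbp1l and B4galt1 for Phka2, Itprid2 and Ddost for Phkb and Gm43587 and Fam50a for Pygb, all at 0.0183 to 0.0491.

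Markers of several other cell types also differed between the groups, in different directions. The summed FPKM of 12 neutrophil markers was 63702, 52478 and 53696 in KO and 27608, 44661 and 31529 in wildtype. Of the 12, 11 were higher in every KO library than in every wildtype library, where 11.3% of all tested genes were. The sum rested mostly on a few very abundant transcripts, with S100a9, S100a8 and Ngp making up 78.8% to 81.1% of it, and single markers followed the libraries in different ways. In 7 of the 12, Elane, Mpo, Prtn3, Ctsg, Ltf, Lcn2 and Mmp8, KO replicate 1 lay above all wildtype libraries and below KO replicates 2 and 3. It did so for Gys1, Pygl, Gbe1, Ugp2, Pgm2 and Phkb as well. How many of all tested genes had this order was not counted. Mpo, the myeloperoxidase of neutrophil granules, had 343, 620 and 611 FPKM in KO and 240, 258 and 251 FPKM in wildtype, and Ltf, lactoferrin, had 1.64, 2.29 and 2.27 times its wildtype mean in KO and 0.997 to 1.003 times in wildtype. In the other 5, Camp, Ngp, S100a8, S100a9 and Retnlg, KO replicate 1 was above both other KO libraries, and so was the sum, at 1.84 times the wildtype mean against 1.52 and 1.55 times. The median fold over the 12 markers was 1.68, 2.04 and 2.06 in KO and 0.856, 1.18 and 0.947 in wildtype, where Gys1 stood at 1.47, 2.16 and 2.25 in KO. The part of these markers in the differences of Gys1 and Pygl was not tested.

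The summed FPKM of 12 skeletal muscle markers was 223, 5.99 and 5.07 in KO and 48.6, 82.6 and 403 in wildtype. It was highest in wildtype replicate 3 and KO replicate 1, the 2 libraries with the highest Pygm, and lowest in KO replicates 2 and 3, those with the lowest Pygm. Between wildtype replicates 1 and 2 the order was the reverse, with Pygm at 3.57 and 2.55 FPKM. In KO replicates 2 and 3 the sum was 0.034 and 0.028 times its wildtype mean, and Pygm 0.32 and 0.28 times. None of the 12 was listed at 0 in all libraries, and 10 passed the minimum. The part of these markers in the Pygm values was not tested.

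The 13 chondrocyte markers summed to 1443, 636 and 645 FPKM in KO and 612, 834 and 760 FPKM in wildtype, with overlap. Erythroid markers were lower in KO, with sums of 35628, 14706 and 14568 FPKM against 41186 to 64894 FPKM. Of the 6 found, 6 were below every wildtype library in every KO library, where 13.7% of all tested genes were. B cell markers were lower as well, with 10 of 10 below and sums of 139, 89.3 and 92.2 FPKM against 283 to 318 FPKM. So was the sum of 5 adipocyte markers, at 19.6 to 44.6 FPKM against 64.9 to 124 FPKM. Their part in the differences of the 9 genes was not tested. Macrophage marker sums overlapped between the groups, at 245 to 296 FPKM in KO and 282 to 364 FPKM in wildtype, as did osteoblast marker sums, at 641 to 722 and 508 to 1423 FPKM.

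**Figure D4:**
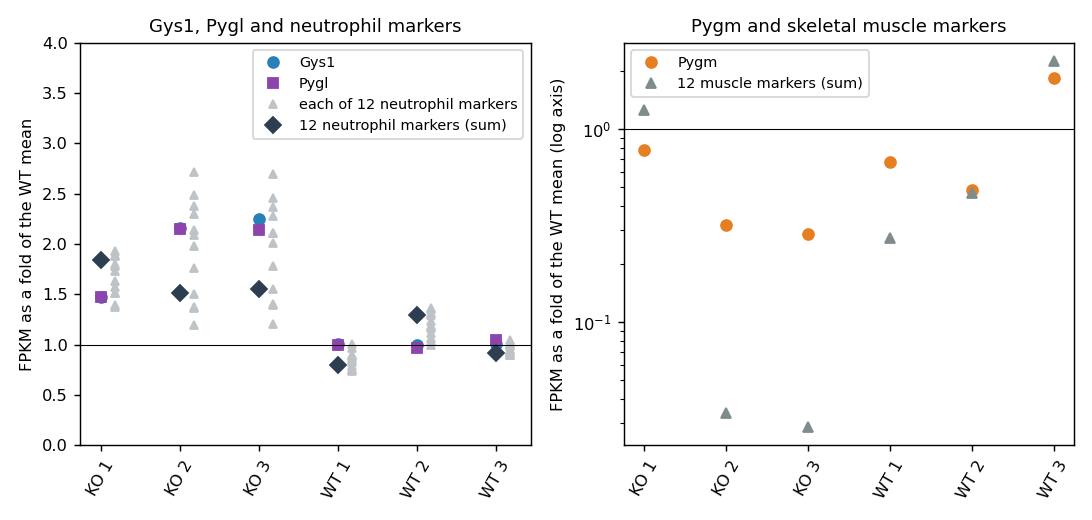
FPKM in each library as a fold of the wildtype mean. Left, on a linear axis, Gys1 and Pygl lie together in every library, and the 12 neutrophil markers (grey, set to the right of each library) spread on both sides of them in the KO libraries, with a median of 1.68, 2.04 and 2.06, while their sum (diamonds) follows the few most abundant markers. Right, on a log axis, Pygm and the sum of 12 skeletal muscle markers are both highest in wildtype replicate 3 and lowest in KO replicates 2 and 3.

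The rest of the route was followed in 31 further genes of 4 lists. Of these genes 24 passed the minimum and were tested for KO versus wildtype. The lists were chosen with earlier results of these data known, so their counts are a description set beside the background. With edgeR's quasi-likelihood test on the 5 samples and Benjamini-Hochberg adjustment, 0 of the 24 had an adjusted p under 0.05, as did 0% of all 15373 genes. Without adjustment, 6 of the 24 had a p under 0.05 and were higher in KO and 2 were lower, beside 7.63% and 6.07% of all genes. With the 6 libraries as labelled, in which KO replicates 2 and 3 count as separate samples, 4 of the 24 passed the adjusted threshold in edgeR's test and all 4 were higher, beside 2.46% of all genes higher and 1.25% lower. With DESeq2 on the 5 samples, 5 of the 24 were higher and 1 lower, beside 3.45% and 2.27% of all genes. The 4 that passed with the 6 libraries were Gyg, Hk3, Gpi1 and Hk2. Without KO replicate 1 their log2 differences were 1.02, 1.08, 0.96 and 1.02. That fit takes the lone KO sample to vary like the wildtype samples.

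Of 7 other core glycogen enzymes 5 passed the minimum. Gyg, glycogenin, the protein primer on which glycogen starts, had 35.5, 54.8 and 55.5 FPKM in KO and 25.54, 27.04 and 26.68 FPKM in wildtype. All KO libraries were above all wildtype libraries, with KO replicate 1 in between. The log2 difference was 0.78 (SE 0.170), with an adjusted p of 0.166 in edgeR's test on 5 samples and 0.0363 with the 6 libraries. Pgm1, the main phosphoglucomutase, had 10.6 to 12.6 FPKM in KO and 8.12 to 10.1 FPKM in wildtype, a log2 difference of 0.36 (SE 0.146).

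A pair of these enzymes had lower values in KO. Phka1, the muscle alpha subunit of phosphorylase kinase, had 1.40, 1.42 and 1.57 FPKM in KO and 2.15, 2.12 and 2.30 FPKM in wildtype, so that every KO library was below every wildtype library. The log2 difference was -0.58 (SE 0.167), with an adjusted p of 0.215 in edgeR's test on 5 samples, 0.0517 on 6 libraries and 0.0189 in DESeq2. Pgm2l1, which makes glucose 1,6-bisphosphate, had 2.55 to 3.29 FPKM in KO and 3.56 to 4.43 FPKM in wildtype, a log2 difference of -0.44 (SE 0.144). Phkg2, the catalytic subunit of the liver-type kinase, overlapped between the groups, and Gys2, the liver synthase, and Phkg1, the catalytic subunit of the muscle-type kinase, did not pass the minimum.

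Of 12 phosphatase subunits and synthase kinases, which set the activity of synthase and phosphorylase, 9 passed the minimum. Of these 0 passed the adjusted threshold in edgeR's test with 5 samples or 6 libraries or in DESeq2. In the same tests 0, 2 and 1 had an unadjusted p under 0.05, beside 2106, 3408 and 2473 of all 15373 genes. The smallest p-values were those of Ppp1r3d and Ppp1r3b, which tie protein phosphatase 1 to glycogen. Ppp1r3d had 4.97, 10.1 and 10.2 FPKM in KO and 4.70, 5.31 and 4.74 FPKM in wildtype, a log2 difference of 0.62 (SE 0.268). Ppp1r3b had 3.66, 7.76 and 7.803 FPKM in KO and 4.03, 3.18 and 4.24 FPKM in wildtype, a log2 difference of 0.59 (SE 0.278). In both, KO replicate 1 lay within the wildtype range and KO replicates 2 and 3 above it. Ppp1r3c, another subunit of this kind, had 15.8, 3.19 and 3.71 FPKM in KO and 4.25, 8.39 and 7.84 FPKM in wildtype. Its log2 difference was 0.54 (SE 0.604), and -1.03 with KO replicates 2 and 3 alone. Gsk3a and Gsk3b, kinases that switch glycogen synthase off, overlapped between the groups, with log2 differences of 0.19 (SE 0.126) and 0.09 (SE 0.211).

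Of the 4 lysosomal and laforin-malin genes 3 passed the minimum, Gaa, Stbd1 and Epm2a, and all 3 overlapped between the groups, with log2 differences of 0.06, -0.57 and -0.15. Gaa, the lysosomal enzyme that digests glycogen, had 7.35 to 8.60 FPKM in KO and 6.35 to 8.27 FPKM in wildtype. Stbd1, which binds glycogen at membranes, was near the minimum, at 0.45 to 0.609 FPKM in KO and 0.421 to 1.02 FPKM in wildtype. Epm2a, the glycogen phosphatase laforin, had 0.950 to 1.42 FPKM in KO and 1.26 to 1.55 FPKM in wildtype.

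Of 8 genes that bring in or release glucose 6-phosphate 7 passed the minimum, and 5 of these had every KO library above every wildtype library, where 11.3% of all tested genes did. Hk3, a hexokinase of blood cells, had 64.2, 102 and 103 FPKM in KO and 46.9, 45.5 and 48.8 FPKM in wildtype, a log2 difference of 0.83 (SE 0.182) with an adjusted p in edgeR's test of 0.168 on 5 samples and 0.0367 on 6 libraries. Gpi1, which interconverts glucose 6-phosphate and fructose 6-phosphate, had 101, 143 and 140 FPKM against 68.9, 72.3 and 70.8 FPKM, a log2 difference of 0.79 (SE 0.182) with adjusted p of 0.171 and 0.0363 in the same tests of edgeR. Hk2, the hexokinase of muscle and fat, had 7.04, 11.4 and 11.9 FPKM against 5.85, 5.07 and 5.86 FPKM, a log2 difference of 0.75 (SE 0.190) with adjusted p of 0.183 and 0.0441 in those tests. In all 3, KO replicate 1 lay between the wildtype libraries and the other KO libraries. The same order held for Gys1, Pygl, Gbe1, Ugp2, Pgm2 and Phkb.

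Slc2a1, the glucose transporter GLUT1, had 7.81, 8.28 and 8.49 FPKM in KO and 4.51, 5.86 and 5.13 FPKM in wildtype, a log2 difference of 0.66 (SE 0.176) with adjusted p of 0.193 on 5 samples and 0.0504 on 6 libraries in edgeR and 0.0215 in DESeq2. Hk1, the hexokinase of most tissues, overlapped between the groups with 16.9 to 22.4 FPKM in KO and 18.1 to 24.7 FPKM in wildtype. G6pc, the glucose 6-phosphatase of liver, did not pass the minimum. The widely expressed phosphatase G6pc3 had 11.0 to 13.2 FPKM in KO and 9.06 to 10.2 FPKM in wildtype, a log2 difference of 0.31 (SE 0.147).

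**Figure D5:**
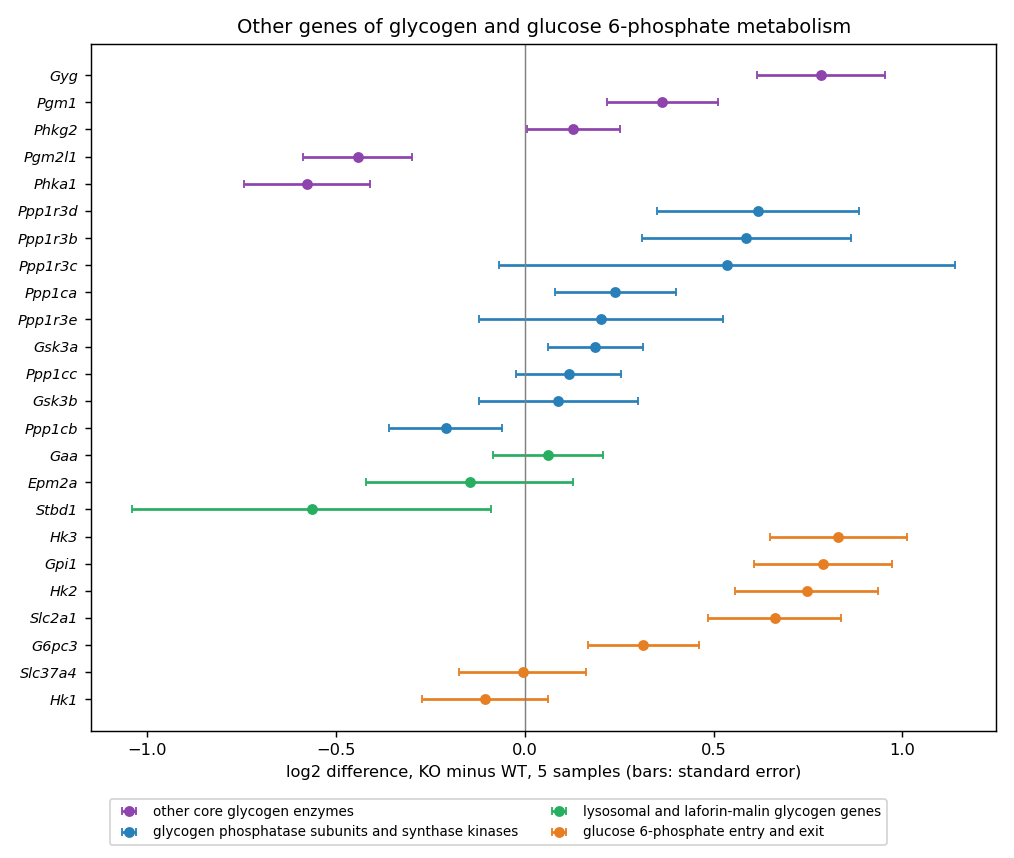
Log2 difference, KO minus wildtype, in the 5 samples for the 24 tested genes of the 4 other lists (horizontal axis, bars are standard errors, colours are lists). Hk3, Gpi1, Gyg and Hk2 are the farthest right, at 0.75 to 0.83, and Phka1 and Stbd1 the farthest left, at -0.58 and -0.57.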

How the data were processed

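Articular cartilage of KO and wildtype mice had been sequenced in 3 libraries a group, as strand-specific poly(A) libraries. The authors deposited 1 table with estimated counts and FPKM for each gene and library. The submitters' processing notes name cutadapt 1.9, HISAT2 2.0.4, StringTie 1.3.4d, UMI-tools, DESeq2 and edgeR, without roles. The deposited counts were whole numbers, with more values at 4 (6596) than at 3 (4170) or 5 (2332). FPKM was used as deposited. Of the 34607 identifiers shared with GENCODE M21 (GRCm38), 87.0% had the same position, 7 of the 9 enzymes among them, and Phka2 and Phkb differed. Promoter sequences are RefSeq's for GRCm38.p6.

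Genes that averaged 0.5 FPKM or more over the 6 libraries were tested with edgeR 4.0.16 (R 4.3.3, TMM scaling, quasi-likelihood, Benjamini-Hochberg over 15373 genes) on 5 samples, with the counts of KO replicates 2 and 3 averaged. Alternatives were the 6 libraries, a replicate block, DESeq2 1.42.0 and its scaling, limma 3.58.1 on log2(FPKM + 1) and log2(FPKM + 0.1), other minimum levels, and each library left out. A floor of 3 counts is 0.0574 CPM or less in every library, and covers counting error only. The labels do not say that libraries come from separate animals, so p-values then measure only the spread between these samples.

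The enzymes and all lists were chosen with earlier results of these data known. Besides the 9 enzymes, the genes named by rule were those of the 4 lists called on 5 samples or 6 libraries, the 2 with the smallest p in each list, and the 2 genes with the profile nearest to each enzyme. Other genes named were picked after their values were seen. The knocked-out gene and 2 genes of the pathway are not reported here.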

Additional observations from a re-analysis of the deposited data

How the results depend on the processing

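With 5 samples edgeR called 0 of 15373 genes (2106 at an unadjusted p under 0.05) and 0 of the 24 other pathway genes. The count over all genes was 570 with the 6 libraries as labelled, 879 with DESeq2, 21 with no minimum level and 9 without KO replicates 2 and 3, and it was 0 with median-of-ratios scaling, with a minimum of 5 FPKM and with limma at either pseudocount. Leaving out 1 library gave 0 to 352 genes, the highest without KO replicate 1, and 1 without wildtype replicate 2 or 3. For the other pathway genes the count was 4 with the 6 libraries, 6 with DESeq2, and 0 to 4 with 1 library left out, the highest again without KO replicate 1, and 0 under the other settings run. The cause of these changes was not tested. Where 1 KO sample remained, it was assumed to vary like the wildtype samples. The direction of none of the 9 enzymes changed under any alternative run, and 7 of the 9 differences were positive in each, with Pygm not fitted at a minimum of 5 FPKM. Deviations from the group means correlated at -0.145, -0.108 and -0.0581 for libraries with the same replicate number, 1 to 3, over 15373 genes. With 3 libraries a group, and KO replicates 2 and 3 so alike, these values cannot tell whether the replicate numbers pair the libraries. The fit with the replicate number as a block on 6 libraries called 0 genes, with 2809 at an unadjusted p under 0.05, and 0 of the other pathway genes.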
